A study of Mus musculus with 6 samples.

Results

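The genes described here are 9 transcription factors of the circadian clock, chosen by gene symbol: the activators Arntl, Npas2 and Clock, the REV-ERB receptors Nr1d1 and Nr1d2, the ROR receptor Rora, and the repressors Nfil3, Bhlhe40 and Bhlhe41. All 9 were measured, through 11 of the 19572 rows with a gene symbol, and they stand among 19505 genes. They were chosen with earlier results of the same 6 livers known, so their differences between livers are given as a description. The samples were total liver RNA of male mice aged 8 weeks on the C57BL/6 background, 3 with HMGB2 knocked out (HMGB2-KO) and 3 wild type (WT), with 1 Clariom S array per liver. The sources used here do not say which part of Hmgb2 was deleted or in which cells. No treatment or surgery is named for these livers.

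In the liver clock, the protein of Arntl (BMAL1) pairs with CLOCK or NPAS2 and switches on genes that carry E-boxes, among them Nr1d1, Nr1d2, the Period and cryptochrome genes, Dbp and the Bhlhe40 and Bhlhe41 genes. The REV-ERB proteins then repress, and ROR proteins activate, genes that carry ROR response elements (ROREs), with Arntl, Npas2, Clock and Nfil3 among them. In mouse liver this loop drives daily rhythms in which Arntl and Nr1d1 peak at nearly opposite times of day. The labels number the livers 1, 2 and 3 within each genotype. They name animals 39, 41 and 32 for HMGB2-KO livers 1, 2 and 3 and animals 38, 40 and 31 for WT livers 1, 2 and 3. The time of day, the day of collection and the feeding state are not stated there, so these cannot be told apart from liver number.

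Each value is a log2 difference from an unstated baseline of its row, after the array was centred on its median. Values can be compared between livers for 1 gene, but no absolute level and no level against another gene can be read, and the tissue label could not be checked against marker levels. The array of WT liver 2 stood apart, with a median of 0.26 before centring against -0.05 to 0.01 on the other 5. Hmgb2 was at -0.66, -0.33 and -0.43 in HMGB2-KO livers 1 to 3, against 0.47, 0.36 and 0.42 in WT livers 1 to 3, so the genotypes did not overlap. The difference was -0.89 (SE 0.13), with an adjusted p of 0.645 in limma.

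Among the activators and their RORE-bearing companion Nfil3, livers numbered 3 were higher than livers 1 and 2 in both genotypes. Arntl was at 0.72 in HMGB2-KO liver 3 and 0.62 in WT liver 3, against -1.03 and -1.98 in HMGB2-KO livers 1 and 2 and -0.99 and -1.71 in WT livers 1 and 2. Both livers 3 lay well above the other 4, and liver 2 was the lowest of its genotype in each case. The mean difference of livers 3 from livers 1 and 2 was 2.10 (SE 0.31), or 4.28-fold, taking the scale as log2. Npas2, which encodes the alternative partner of BMAL1, was at 0.49 in HMGB2-KO liver 3 and 0.54 in WT liver 3. Its values in livers 1 and 2 were -1.40 and -1.37 in HMGB2-KO and -1.33 and -1.14 in WT. Here livers 1 and 2 lay close together, and the difference of livers 3 from them was 1.82 (SE 0.13), or 3.54-fold.

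Clock, which encodes the other partner and is known to swing less than Arntl in liver, moved the same way by less. It was at 0.14 in HMGB2-KO liver 3 and -0.05 in WT liver 3, against -0.42 and -0.64 in HMGB2-KO livers 1 and 2 and -0.20 and -0.96 in WT livers 1 and 2. The difference was 0.60 (SE 0.22), and the gap between the lower liver 3 and WT liver 1 was narrow. Nfil3 encodes a repressor that competes with DBP for D-box sites. It was at 0.32 in HMGB2-KO liver 3 and -0.03 in WT liver 3, against -0.70 and -0.62 in HMGB2-KO livers 1 and 2 and -0.34 and -1.18 in WT livers 1 and 2. The difference was 0.86 (SE 0.24), and for Clock and Nfil3 alike WT liver 2, whose array stood apart, had the lowest value. Without WT liver 2 the differences were 0.45 for Clock and 0.69 for Nfil3.

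The REV-ERB genes ran the other way and farther. Nr1d1 was at -1.52 in HMGB2-KO liver 3 and -1.57 in WT liver 3, against 2.88 and 2.91 in HMGB2-KO livers 1 and 2 and 3.27 and 3.03 in WT livers 1 and 2. The difference of livers 3 from livers 1 and 2 was -4.56 on the log2 scale (SE 0.14), or 23.6-fold lower, and by the size of this difference Nr1d1 ranked 3 among the 19505 genes. Nr1d1 shares 1075 bases of its locus with Thra, a thyroid hormone receptor gene known to be read from the opposite strand. Thra was looked up after these values were seen, and its difference between livers 3 and livers 1 and 2 was 0.07 (SE 0.15). Nr1d2, the second REV-ERB gene, was at -0.81 in HMGB2-KO liver 3 and -0.39 in WT liver 3, against 1.84 and 2.10 in HMGB2-KO livers 1 and 2 and 1.43 and 1.85 in WT livers 1 and 2. Its difference was -2.41 (SE 0.22), or 5.30-fold lower, and it ranked 14.

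The ROR gene Rora, which encodes an activator at the same elements, hardly varied. The row kept for it was at -0.14 in HMGB2-KO liver 3 and -0.19 in WT liver 3, against -0.27 and 0.03 in HMGB2-KO livers 1 and 2 and 0.07 and 0.03 in WT livers 1 and 2. The livers overlap by number, with a difference of -0.13 (SE 0.15). The array reads Rora through 3 rows, whose differences by liver number were -0.13, -0.08 and 0.08 and whose ranges over the 6 livers were 0.35 to 0.42. For comparison, the median range over all genes was 0.52, and the other 8 members each spanned over 1.

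Bhlhe40 and Bhlhe41, which encode the E-box repressors DEC1 and DEC2, differed from each other. Bhlhe41 was at -0.60 in HMGB2-KO liver 3 and -0.23 in WT liver 3, against 0.29 and 0.86 in HMGB2-KO livers 1 and 2 and 0.63 and 1.12 in WT livers 1 and 2. Livers 3 were the lowest and livers 2 the highest in both genotypes, with a difference of -1.14 (SE 0.21), or 2.21-fold lower. Bhlhe40 was at 0.22 in HMGB2-KO liver 3 and -0.34 in WT liver 3, against 0.85 and -0.02 in HMGB2-KO livers 1 and 2 and 0.92 and 0.34 in WT livers 1 and 2. Livers 1 were the highest of their genotype, HMGB2-KO liver 3 lay between its companions, and the difference of -0.58 (SE 0.31) was -0.19 within HMGB2-KO and -0.96 within WT.

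**Figure D1:**
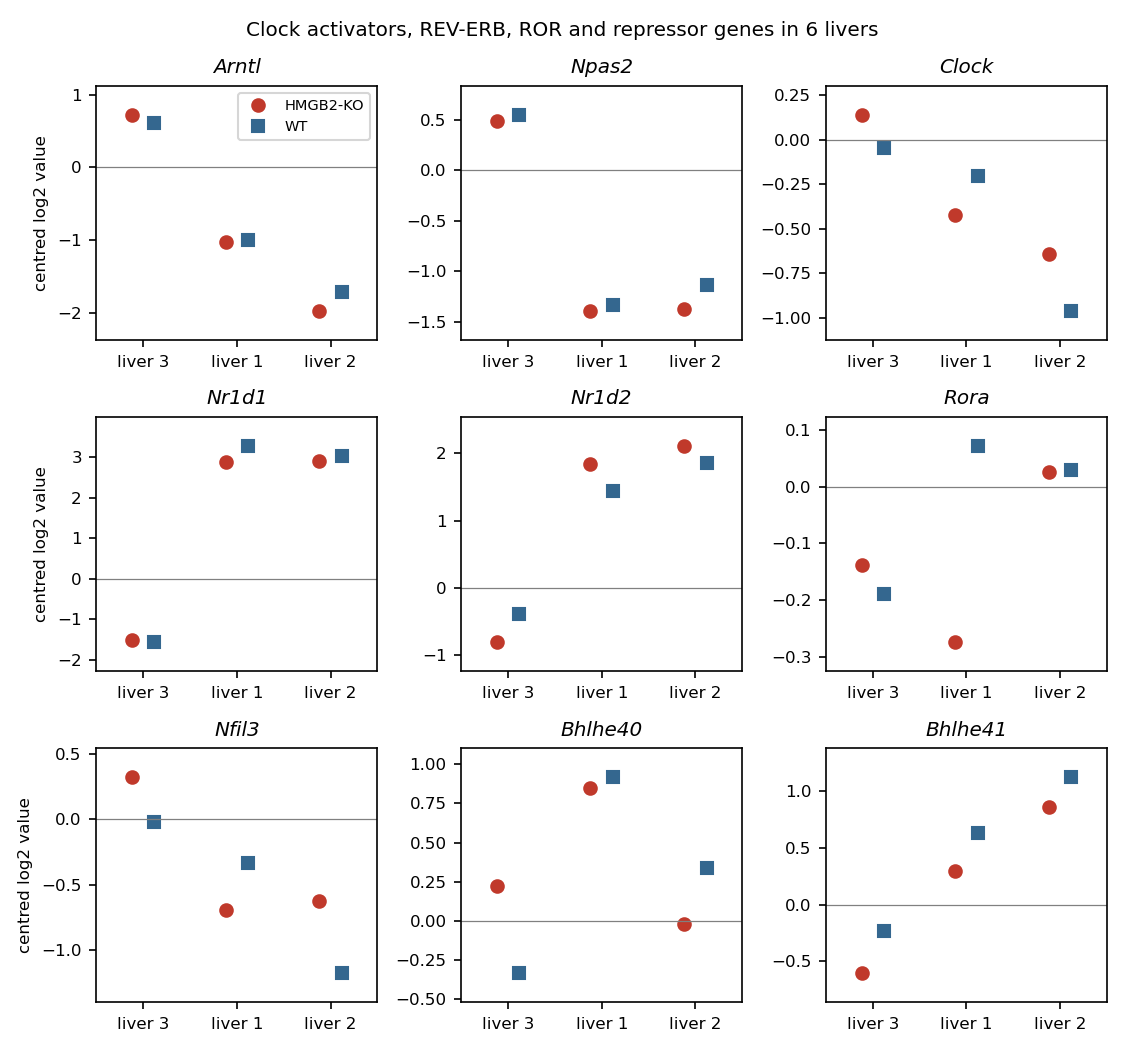
Centred log2 value (y axis, its own scale in each panel) of the 9 genes in livers 3, 1 and 2 (x axis), with red circles for HMGB2-KO and blue squares for WT, 1 point per liver. Arntl, Npas2, Clock and Nfil3 are highest in both livers 3, Nr1d1, Nr1d2 and Bhlhe41 are lowest there, and Rora and Bhlhe40 overlap.

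In 7 of the 9 genes both livers 3 lay outside the range of the other 4, 4 above and 3 below. Among all genes that share was 19.7%, with 10.4% above and 9.32% below. In 5 of the 9 the difference exceeded 1 on the log2 scale, against 1.24% of all genes, and the median absolute difference was 1.14 in the 9 genes and 0.14 over all genes. These shares describe genes chosen with the values known, and nothing is read from them. Fitted across all genes with genotype in the model, limma called 8 genes by liver number at an adjusted threshold of 0.05, which is 0.041% of the genes tested. Nr1d1, Npas2 and Nr1d2 were 3 of them and are described, not tested, here. Outside the rule for named genes, and chosen after the values were seen, the other 5 were Hamp and Hamp2, which encode hepcidins and were higher in livers 3, and Angptl4, Slc25a47 and Olfr1287, which were lower there. The count of 8 rests on few livers, and was 1 without HMGB2-KO liver 3, 1 without WT liver 3 and 3 without HMGB2-KO liver 1. Nr1d1 was the only member among the calls in each of these 3 fits. The same held without HMGB2-KO liver 2, where 10 genes were called. Without WT liver 2, where 8 were called, Nr1d2 was not among them.

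Livers 1 and 2 also differed from each other for some of the genes, in the same direction in both genotypes. Liver 2 minus liver 1 was -0.95 in HMGB2-KO and -0.72 in WT for Arntl, and -0.87 in HMGB2-KO and -0.58 in WT for Bhlhe40. It was 0.57 in HMGB2-KO and 0.49 in WT for Bhlhe41. Npas2, at 0.02 in HMGB2-KO and 0.19 in WT, and Nr1d1, at 0.03 in HMGB2-KO and -0.23 in WT, hardly separated livers 1 and 2. For Nfil3 the step was 0.07 in HMGB2-KO and -0.84 in WT. The 3 liver numbers stood in the same order in both genotypes for 5 of the 9 genes, namely Arntl, Npas2, Clock, Nr1d2 and Bhlhe41, against 20.4% of all genes. Nr1d1 missed this count through livers 1 and 2, which lay within 0.39 of each other over both genotypes.

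The promoters were searched for the sites through which these factors are known to act. RefSeq promoters of build GRCm38.p6, from 250 bases before to 50 bases after a start site, were matched by symbol for 8 of the 9 genes, 11 promoters in all, and Bhlhe40 was not matched. The motifs searched on both strands were the E-box CACGTG, a variant E-box CACGTT, the RORE core TAGGTCA, a variant RORE core TAGGTTA, the receptor half-site AGGTCA, which lies within the RORE core, and the D-box TTATGTAA. Among 32851 promoters of the same length they occurred in 7.15%, 4.68%, 2.61%, 1.44%, 16.3% and 0.938%, in that order. Shown are 2 genes that were high in livers 3 with a RORE core and 2 that were low there with an E-box form, each 5′ to 3′ on the gene's strand with matches in capitals.
Arntl, chr7:113207261-113207560, plus strand: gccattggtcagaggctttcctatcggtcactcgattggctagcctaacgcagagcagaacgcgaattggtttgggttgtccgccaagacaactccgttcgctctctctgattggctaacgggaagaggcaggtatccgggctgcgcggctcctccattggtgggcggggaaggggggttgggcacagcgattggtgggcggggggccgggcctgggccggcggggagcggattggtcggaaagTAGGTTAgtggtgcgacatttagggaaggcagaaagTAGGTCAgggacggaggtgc
Nfil3, chr13:52980990-52981289, minus strand: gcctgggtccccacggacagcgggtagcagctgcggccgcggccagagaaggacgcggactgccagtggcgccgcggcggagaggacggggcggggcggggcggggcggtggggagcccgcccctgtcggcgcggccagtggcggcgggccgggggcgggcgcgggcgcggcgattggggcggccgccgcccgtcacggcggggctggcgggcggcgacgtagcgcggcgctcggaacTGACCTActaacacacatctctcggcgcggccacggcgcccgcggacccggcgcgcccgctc
Nr1d1, chr11:98775328-98775627, minus strand: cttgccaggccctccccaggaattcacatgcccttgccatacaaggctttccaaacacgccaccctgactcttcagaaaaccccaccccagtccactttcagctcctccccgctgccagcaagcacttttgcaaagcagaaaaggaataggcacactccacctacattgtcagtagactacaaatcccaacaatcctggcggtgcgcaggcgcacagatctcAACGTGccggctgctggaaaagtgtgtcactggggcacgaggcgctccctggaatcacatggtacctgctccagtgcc
Bhlhe41, chr6:145865371-145865670, minus strand: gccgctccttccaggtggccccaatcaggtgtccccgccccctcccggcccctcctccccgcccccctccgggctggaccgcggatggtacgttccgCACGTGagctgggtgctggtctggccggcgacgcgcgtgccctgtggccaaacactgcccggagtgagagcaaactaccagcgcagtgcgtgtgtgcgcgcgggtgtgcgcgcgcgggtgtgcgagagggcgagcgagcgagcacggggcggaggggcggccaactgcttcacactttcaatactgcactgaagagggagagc
In the Arntl promoter above, TAGGTTA lies from -6 to 1 and TAGGTCA from 31 to 37 relative to the start site. The other of the 2 Arntl promoters, not shown, holds TAGGTTA alone, from 41 to 47, and no RORE core. In Nfil3 the RORE core lies on the reverse strand from -12 to -6. In Nr1d1 the variant E-box lies on the reverse strand from -28 to -23, and in Bhlhe41 the E-box lies from -153 to -148. Nr1d2 holds a half-site alone, from -77 to -72, and 1 of the 3 Clock promoters holds a half-site on the reverse strand from -119 to -114. Npas2 and Rora have no match within these windows. A match describes letters in the window and is neither a measured binding site nor a cause.

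The remaining clock genes were taken from 4 lists of 45 genes, of which 39 were measured. By liver number, 20 of the 39 had both livers 3 outside the range of the other 4, 9 above and 11 below, against 19.7% of all genes. In limma 0 of the 39 passed the adjusted threshold, while 14 had an unadjusted p under 0.05, against 8.49% of all genes. The median absolute difference was 0.34, against 0.14 over all genes. The lists were chosen with earlier results of these livers known, so these counts are a description and nothing is read from them. Of the Period, cryptochrome and PAR bZIP genes, 5 of 9 were below the other livers in both livers 3 and Cry1 was above. Over all genes 9.32% were below and 10.4% above, and these counts too are a description. Dbp, which encodes the D-box activator that NFIL3 opposes, was at 0.11 in HMGB2-KO liver 3 and 0.09 in WT liver 3, against 4.42 and 5.55 in HMGB2-KO livers 1 and 2 and 3.64 and 4.99 in WT livers 1 and 2. Its difference of -4.55 (SE 0.45) was nearly that of Nr1d1. The E-box repressor Ciart differed by -1.52 (SE 0.77) and Per1 by -1.50 (SE 0.26).

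Ciart also separated livers 1 and 2, at 0.55 and 2.80 in HMGB2-KO and 0.42 and 2.75 in WT, where Nr1d1 did not. Among the output genes of the clock in liver, the 3 with the largest differences by liver number were Rgs16, a regulator of G protein signalling, at -5.10 (SE 0.85), Lpin1, a phosphatidate phosphatase, at -4.29 (SE 0.56), and Elovl3, a fatty acid elongase, at 2.09 (SE 0.30). The list of kinases, ubiquitin ligases and cofactors that act on clock proteins had a median absolute difference of 0.19 over 11 measured genes, against 0.14 over all genes. In 5 of the 11 both livers 3 lay outside the range of the other 4, 4 above and 1 below. Over all genes that share was 19.7%, with 10.4% above and 9.32% below, and nothing is read from the count. The paralog Arntl2, at -0.04 (SE 0.14), and Rorb, at 0.08, overlapped by liver number.

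**Figure D2:**
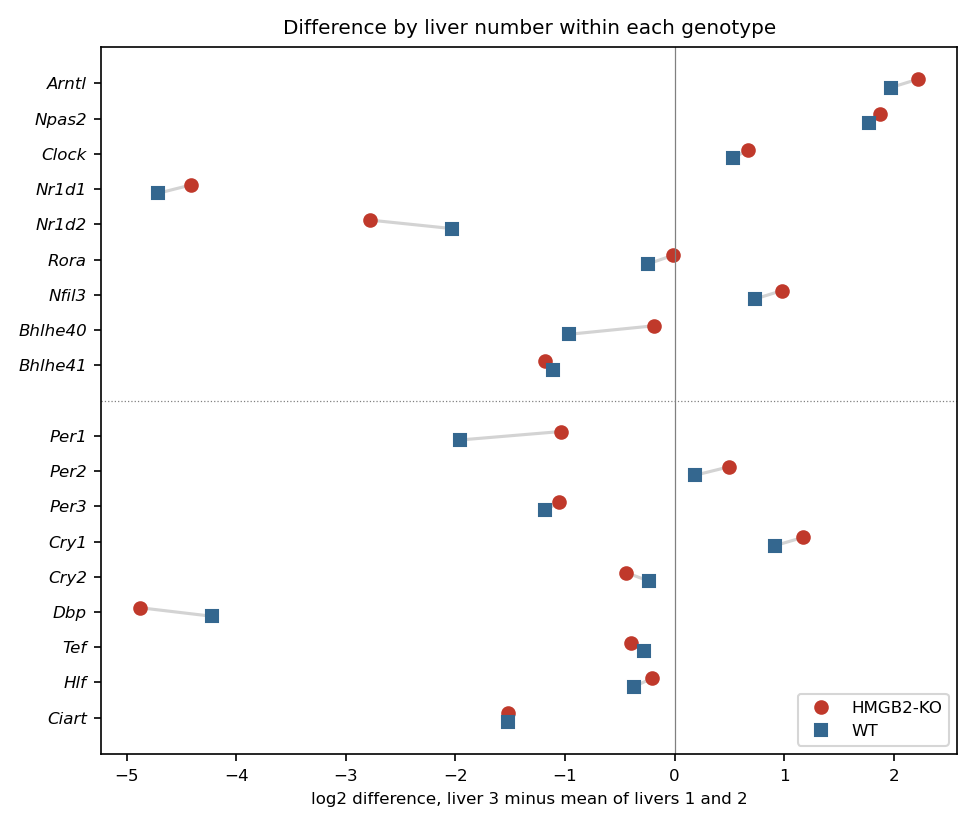
Liver 3 minus the mean of livers 1 and 2 on the log2 scale (x axis) for the 9 genes, above the dotted line, and the 9 Period, cryptochrome and PAR bZIP genes, below it, with red circles for HMGB2-KO and blue squares for WT. Nr1d1 (-4.41 in HMGB2-KO and -4.72 in WT) and Dbp (-4.88 in HMGB2-KO and -4.22 in WT) lie farthest left and Arntl (2.22 in HMGB2-KO and 1.97 in WT) farthest right.

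The medians of cell type marker lists moved little with liver number. In bulk RNA, fewer cells of a type and less RNA per cell cannot be told apart. The median over 10 core hepatocyte markers was 0.02 to 0.04 in livers 3, against -0.17 to 0.05 in the other 4. Over 6 marker lists the median difference by liver number lay between -0.16, for 7 lymphocyte markers, and 0.12, for 10 Kupffer cell markers, all 10 of which were higher in livers 3. No single marker differed by more than 0.61 by liver number on the log2 scale, a size close to the 0.60 of Clock. Between genotypes the list medians lay between -0.25, for 6 cholangiocyte markers, and 0.19, for 10 Kupffer cell markers. All 10 of the Kupffer cell markers were higher in HMGB2-KO. The part of cell types in the results was not tested.

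The comparison the study was designed for, HMGB2-KO against WT, called none of the 9 genes. In limma 0 of 19505 genes passed an adjusted threshold of 0.05, which is 0% of those tested, and at an unadjusted p under 0.05 there were 717 genes (3.68%) and 0 of the 9. The genotypes overlapped in all 9 genes. Among all genes 9.67% did not overlap, so 0 of 9 is near that share and nothing is read from it. The log2 fold changes lay within 0.32 of 0, but the intervals were wide, and each genotype holds 1 of the livers numbered 3. Arntl averaged -0.76 ± 1.37 in HMGB2-KO and -0.70 ± 1.19 in WT (SD, n = 3 each). The difference was -0.07, with a 95% confidence interval of -1.86 to 1.72 (limma adjusted p = 0.999). Nr1d1 averaged 1.42 ± 2.55 in HMGB2-KO and 1.58 ± 2.73 in WT (SD, n = 3 each). Its difference was -0.15, with an interval of -3.80 to 3.49. The fit without liver number thus leaves room for large differences in either direction, and it does not show that the genotypes are alike. With liver number added to the fit as a block, the 95% confidence intervals were -0.40 to 0.27 for Arntl and -0.51 to 0.20 for Nr1d1. That alternative takes livers of the same number as pairs, which the main fit does not.

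Livers of the same number lay closer together across the genotypes than livers of different numbers for each of the 9 genes. The 9 genes were chosen with earlier results of these livers known, and no share over all genes stands beside this count. It is a description, and nothing is read from it. The mean absolute difference between an HMGB2-KO and a WT liver of the same number was 0.13 for Arntl, 0.12 for Npas2, 0.19 for Nr1d1 and 0.36 for Nr1d2. Between livers of different numbers it was 1.68 for Arntl, 1.27 for Npas2, 3.13 for Nr1d1 and 1.72 for Nr1d2. For Rora the values were 0.13 and 0.17, so the number made little difference there. Bhlhe41 had the largest genotype difference of the 9, at -0.32 (SE 0.44, limma adjusted p = 0.994), and HMGB2-KO minus WT was -0.34, -0.26 and -0.37 in livers 1, 2 and 3. For Npas2 it was -0.06, -0.23 and -0.06. A difference on 1 side at all 3 numbers occurred in 26.4% of all genes. For Nfil3 the sign varied, with -0.36, 0.55 and 0.35 in livers 1, 2 and 3, and so did that of Nr1d2, with 0.40, 0.25 and -0.42.

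**Figure D3:**
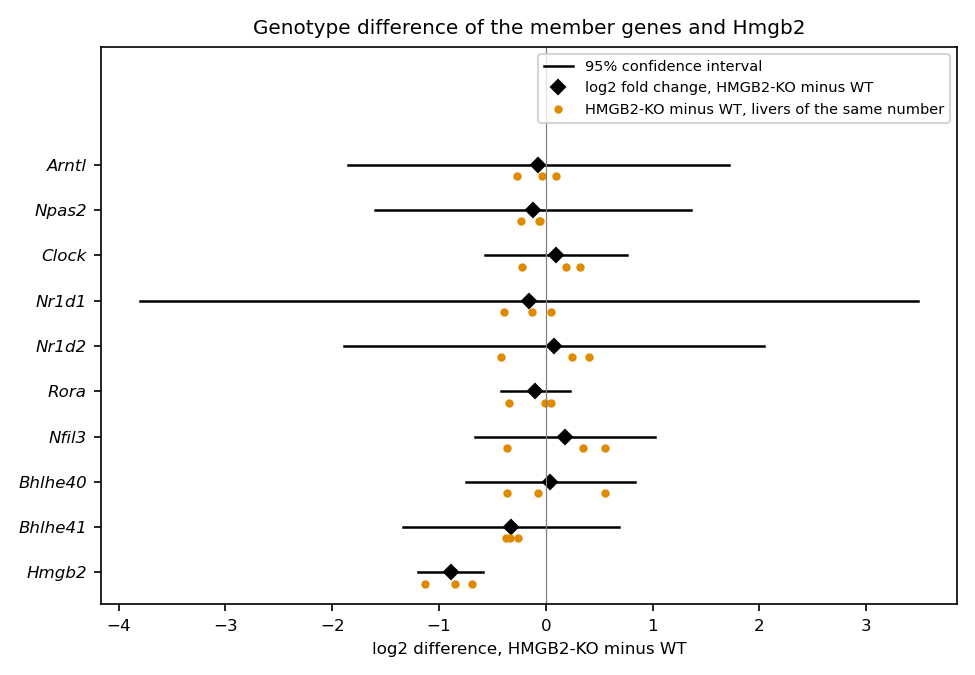
HMGB2-KO minus WT on the log2 scale (x axis) for the 9 genes and Hmgb2. Diamonds are log2 fold changes from limma, lines their 95% confidence intervals, and orange points the differences between livers of the same number. The intervals of all 9 genes span 0, that of Nr1d1 being the widest (-3.80 to 3.49), and that of Hmgb2 (-1.20 to -0.58) does not.

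Among the 39 measured genes of the other clock lists, 0 passed the adjusted threshold between genotypes in limma and 0 had an unadjusted p under 0.05. Of these genes 27 had a positive and 12 a negative log2 fold change, and the median was 0.08, against -0.00 over all genes. The 4 with the smallest p were Timeless, which encodes a replication fork protein, at -0.28 (SE 0.14), Wee1, a mitotic inhibitor kinase driven by the clock in mouse liver, at 0.35 (SE 0.18), Csnk1a1, a casein kinase that phosphorylates PER proteins, at -0.19 (SE 0.11), and Arntl2 at 0.19 (SE 0.12). Each had an adjusted p of 0.994 in limma.

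By Pearson correlation over the 6 livers, among 1504 genes that span at least 1 on the log2 scale, the 5 genes most like Arntl were Lgalsl, Slc30a10, a manganese exporter, Chka, a choline kinase, Clpx, part of a mitochondrial protease, and Cdkn1a, which encodes the cell cycle inhibitor p21. Their r lay between 0.978 for Cdkn1a and 0.996 for Lgalsl. Lgalsl was at 1.25 in HMGB2-KO liver 3 and 1.10 in WT liver 3, against -0.41 and -1.03 in HMGB2-KO livers 1 and 2 and -0.38 and -0.85 in WT livers 1 and 2. Like Arntl, it was lower in liver 2 than in liver 1 in both genotypes, but it was picked for its r with Arntl over these same livers. Cdkn1a differed by 2.48 between livers 3 and livers 1 and 2.

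The 5 most opposite to Arntl were Gne, which starts sialic acid synthesis, St3gal5, a ganglioside synthase, Dbp, Cts6, a cathepsin, and Upp2, a uridine phosphorylase, with r from -0.995 for Gne to -0.988 for Upp2. Gne and Dbp are also in the lists of clock genes. Most like Nr1d1 were Slc25a47, a mitochondrial carrier (r 0.985), Gabarapl1, an autophagy gene, Klf10, a transcription factor, Cetn4, a centrin, and Pgap1, with r down to 0.970. Slc25a47 was at 0.54 in HMGB2-KO liver 3 and -0.11 in WT liver 3, against 2.68 and 2.57 in HMGB2-KO livers 1 and 2 and 2.66 and 2.51 in WT livers 1 and 2. The 2 livers numbered 3 stand apart from the other 4 for all these genes, so these coefficients largely read that split, and they carry no test.

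**Figure D4:**
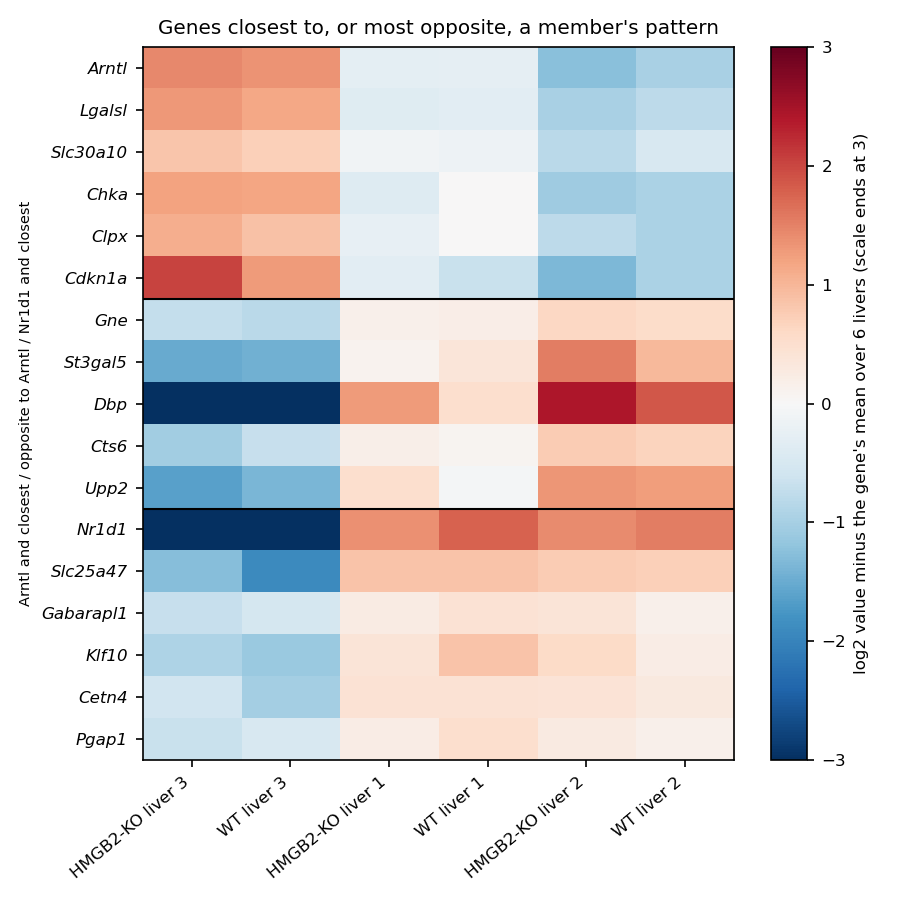
Log2 value minus the gene's mean over the 6 livers (colour, the scale ending at 3 on either side) for Arntl and the 5 genes most like it, the 5 most opposite to it, and Nr1d1 and the 5 most like it, by liver (columns). Both livers 3 are high in the first block and low in the others.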

How the data were processed

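Total RNA of 6 livers was extracted with Trizol, labelled with biotin and hybridised to 1 Clariom S array each, per the labels' protocols. The authors deposited 1 table of 22206 rows, whose values were read as log2 because they have both signs around 0 and run from -8.60 to 6.93. The sources used here do not state the summarization of probes, the normalization, the log base or the baseline of a row, so a value is a difference from an unknown level. The platform annotation paired 19572 rows with 1 gene symbol, 0 with several, and left 2634 unnamed. All 6 value columns were used, 0 were left out. The median of each array was subtracted. Where 1 of 55 genes had more than 1 row, the row of highest mean stood for it, which gave 19505 genes.

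HMGB2-KO was set against WT with limma 3.58.1 under R 4.3.3 (two-sided, Benjamini-Hochberg over all genes). Livers numbered 3 were set against livers 1 and 2 in a fit with genotype, whose values are descriptive for the 9 genes. With 3 arrays per genotype, the number of arrays limits the precision. The p-values set a difference against the spread between animals, which in the genotype fit includes the differences by liver number. Named were the 9 genes, Hmgb2, the 6 other clock genes with the largest difference by liver number and the 4 with the smallest genotype p, and the 5 genes nearest to Arntl, most opposite to it and nearest to Nr1d1 by Pearson r, without predicted genes and olfactory or vomeronasal receptors. Members and lists were chosen with earlier results of these data known. The fits were also run on simulated data with known changes, drawn with the spread left after genotype and liver number. For the genotype fit that spread lacks the differences by liver number. The simulation therefore does not show how well that fit finds changes in these livers. Alternatives were the deposited scale, quantile normalization, the mean of rows, array weights, a replicate block, and leaving out each liver.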

Additional observations from a re-analysis of the deposited data

Results flagged for a closer look

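Arntl2, the paralog of Arntl, lay in opposite directions by liver number in the genotypes, with liver 3 minus livers 1 and 2 at -0.19 in HMGB2-KO and 0.11 in WT. In HMGB2-KO liver 3 was below both companions and in WT above both. The difference between genotypes was not tested. The standard error of the joint difference was 0.14.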

How the results depend on the processing

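The differences of the 9 genes by liver number kept their sign in all 117 values under alternatives. These values are not separate checks, as the value without WT liver 3 equals that within HMGB2-KO, and likewise for the other genotype. For Rora, 1 of its 3 rows lay on the other side, at 0.08. The genotype differences of the 9 genes did not keep their sign. With 1 liver left out they ranged as follows: Arntl (-0.81 to 0.59), Npas2 (-0.74 to 0.47), Clock (-0.18 to 0.27), Nr1d1 (-1.73 to 1.31), Nr1d2 (-0.60 to 1.00), Nfil3 (-0.15 to 0.42), Bhlhe40 (-0.28 to 0.35), Bhlhe41 (-0.69 to 0.069). Of the other clock genes the ranges were Rgs16 (-0.55 to 2.86), Dbp (-0.96 to 2.08), Lpin1 (-0.82 to 2.10), Elovl3 (-0.21 to 1.21), Ciart (-0.72 to 0.93), Per1 (-0.16 to 0.97). Leaving out 1 liver leaves the genotypes with unequal shares of livers 3. With the values as deposited, where the median of all genes lies at -0.12, Clock was at -0.022, Nr1d2 at -0.041, Bhlhe40 at -0.075 and Ciart at -0.024. With array weights Clock was at -0.013 and Bhlhe40 at -0.092. Within livers 1 and 2 alone Bhlhe40 was at -0.21, and with the mean of its 3 rows Rora was at 0.0019. By liver number, Wee1 was at 0.017 and Arntl2 at 0.11 within WT, with ranges of (-0.22 to 0.064) and (-0.19 to 0.11) when 1 liver was left out.

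The count of genes called by liver number was 22 with quantile normalization, 22 with array weights, 16 without the genotype term, and from 1 to 12 with 1 liver left out. The cause was not tested. Nr1d1 was among the calls in each of these fits, and with the values as deposited, where 6 genes were called, it was the only one of the 9 genes. The 9 genes were chosen with these values known, so their calls are a description and give no support. The genotype count was 0 under each alternative run, including the fit with the replicate block (858 genes at an unadjusted p under 0.05, against 717 without it). The block left the fold changes of the 9 genes as they were and gave standard errors of 0.12 to 0.20, against 0.14 to 1.57 without it, with 0 of the 9 past the adjusted threshold (smallest adjusted p 0.922). At an unadjusted p under 0.05 the block counted 1 of the 9, Bhlhe41 (95% confidence interval -0.62 to -0.024), and 3 of the 39 other clock genes, Dbp, Avpr1a and Lpin1. Without it the counts were 0 of the 9 and 0 of the 39. Over all genes the block counted 858 of 19505, and nothing is read from the counts of clock genes. Over all genes, deviations of same-numbered livers from their genotype means correlated at 0.04, 0.13 and 0.29 for numbers 1, 2 and 3. As the first lies under 0.1, the numbers were not taken as pairs. HMGB2-KO liver 1 correlated better with WT liver 2, at 0.10, than with WT liver 1. The remaining combinations of unlike numbers correlated at -0.21 to -0.003, below each same-number value. A filter on dim probes was not run, since the values hold no level.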
